A study of Mus musculus with 21 samples.

Results

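Epidermal identity and differentiation are set by a small group of transcription factors, and 10 of them were followed here: Trp63, Klf4, Klf5, Grhl1, Grhl3, Ovol1, Zfp750, Cebpa, Cebpb and Prdm1. They were taken by gene name from a deposited count table of 23713 genes, and all 10 were found. Trp63 (p63) is the master regulator of the basal, proliferating layer and of the commitment to a stratified epithelium. As basal cells move up and stop dividing, Klf4, Grhl3, Ovol1, Zfp750, the C/EBP factors and Prdm1 take part in turning on barrier and cornification genes. Basal cell carcinoma (BCC) is a tumour of epidermal keratinocytes driven by Hedgehog signalling, and Gnas encodes Gαs, the G protein subunit through which receptors switch on cAMP production and protein kinase A.

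The libraries hold polyA RNA of tail keratinocytes, freed from the skin of mice with trypsin and dispase. Mice named SmoM2 carried BCC (4 libraries) or were their controls, Con (3 libraries), and were sampled 29 days after tumours were induced. Mice named Gnas-eKO (4 BCC, 3 Con) were sampled at 42 days, and mice named PKI (4 BCC, 3 Con) at 57 days. SmoM2 is known as an activated form of the Hedgehog receptor component Smoothened, Gnas-eKO as an epidermal deletion of Gnas, and PKI as an inhibitor peptide of protein kinase A. The labels do not give the promoter or Cre that drives each change, the strain, the sex or the age of the mice, or which of these alleles the controls carry. Model, day and the labelled batch coincide, so a difference between models cannot be told apart from batch or day. BCC and Con were compared within a model.

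Library totals ran from 16645858 to 22251132 estimated counts. Levels are given as CPM, the counts of a gene relative to all counts of its library, scaled with TMM over the 21 libraries. Within-group correlations of log2 CPM over all genes were 0.971 or higher, except in Gnas-eKO BCC, where the lowest was 0.942. The Gnas-eKO BCC replicate 2 library stood apart: its first principal component score was -20.4, against 46.3 to 48.5 for the other Gnas-eKO BCC libraries and -51.2 to -40.4 for Gnas-eKO Con. Its Ptch1, a Hedgehog target, was 270 CPM, against 933, 315 and 827 CPM in BCC replicates 1, 3 and 4. Its Gnas was 89.5 CPM, against 115, 51.1 and 65.6 CPM. In the column names, the SmoM2 BCC animals carry the prefix BF, while the SmoM2 Con animals and all Gnas-eKO animals carry TJ. The meaning of the prefix is not given. If it marks the origin of the mice, tumour and origin cannot be told apart in SmoM2. The labels do not say outright that the libraries of a group come from separate mice, although each column carries its own animal name. If they do not, p-values measure only the spread between these libraries.

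Summed keratinocyte markers (7 genes) were 29560 to 74317 CPM over the libraries. Lower sums were seen in SmoM2 BCC (37490 to 53106, against 56139 to 72352 CPM in Con) and in Gnas-eKO BCC (29560 to 50007, against 56974 to 68158 CPM). Of the 7 genes, 5 were called lower in SmoM2, and 2 were higher and 2 lower in PKI. In Gnas-eKO none passed by edgeR, and 3 (Krt14, Krt10 and Sfn) had an unadjusted p under 0.05. With 1 library left out, 2 to 4 were called lower in SmoM2 and 0 to 4 in Gnas-eKO, and in PKI 0 to 2 were higher and 1 to 2 lower. Fibroblast markers (6 genes) summed to 387 to 525 CPM in SmoM2 BCC against 17.2 to 39.8 CPM in Con, and to 94.3 to 579 CPM in Gnas-eKO BCC against 15.9 to 27.4 CPM. In PKI they summed to 84.4 to 145 CPM in BCC and 15.8 to 43.5 CPM in Con. Decorin (Dcn) made most of these sums, at 362 to 500 CPM in SmoM2 BCC and 569 CPM in Gnas-eKO BCC replicate 2. The 5 other genes summed to 12.1 to 26.5 CPM in SmoM2 BCC (Con 3.49 to 12.1), 9.76 to 89 CPM in Gnas-eKO BCC (Con 4.51 to 8.12) and 17 to 45.3 CPM in PKI BCC (Con 2.65 to 15.3). The genes called higher were Dcn and Col1a2 in SmoM2, Dcn in Gnas-eKO, and Dcn, Lum and Col3a1 in PKI, while Col1a1 and Col3a1 did not pass in SmoM2. With 1 library left out, 2 to 3 fibroblast genes were called higher in SmoM2, 0 to 5 in Gnas-eKO and 2 to 5 in PKI. PKI BCC also had more inner root sheath RNA (1893 to 2425 CPM, against 31.7 to 251 CPM in Con, 6 of 6 genes called higher) and more leukocyte RNA (257 to 479 against 47.7 to 123 CPM, 7 of 9 tested genes called higher). With 1 PKI library left out, 3 to 6 of the inner root sheath genes and 4 to 7 of the leukocyte genes were called. Melanocyte RNA was lower in PKI BCC (72.2 to 117, against 153 to 201 CPM in Con, 4 of 5 genes called lower, 3 to 4 with 1 library left out). In SmoM2 the melanocyte sums overlapped (109 to 159 against 115 to 204 CPM in Con), and 2 of 5 genes were called lower, 1 to 4 with 1 library left out. Sebocyte markers summed to 197 to 602 CPM in PKI BCC and 678 to 802 CPM in Con without overlap, although none of the 4 tested genes passed by edgeR. Without PKI BCC replicate 1, 2 of these were called lower. Endothelial markers stayed at 0.781 to 4.25 CPM and Merkel cell markers at 0.205 to 2.18 CPM. In bulk RNA, fewer cells of a type and less RNA per cell cannot be told apart. The part of these cell types, and of the shares of basal and suprabasal cells, in the results below was not tested.

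The 10 genes lie on separate loci of GRCm38. Trp63 (ENSMUSG00000022510.14, chr16:25683763-25892102, plus strand) is the longest, and the zinc finger genes Klf4 (chr4:55527143-55532466, minus), Klf5 (chr14:99298691-99315036, plus), Ovol1 (chr19:5549136-5560646, minus), Zfp750 (chr11:121510978-121519333, minus) and Prdm1 (chr10:44437177-44528501, minus) follow. The grainyhead-like genes are Grhl1 (chr12:24572283-24617391, plus) and Grhl3 (chr4:135541888-135573630, minus). Cebpa (chr7:35119293-35121928, plus) and Cebpb (chr2:167688915-167690418, plus) are short genes. Exons of Cebpb overlap those of Tmem189 on the opposite strand, and Tmem189 was 49.8 to 80.3 CPM, or 39.9 to 69.2% of the Cebpb level. Whether counting used the strand is not given in the sources used here, so the Cebpb values are less certain. The overlapping antisense genes Gm31166 (at most 2.92% of Ovol1) and Gm45091 (at most 0.435% of Cebpa) were low. Zfp750 lies in an intron of Tbcd on the opposite strand, with no shared exon, and Tbcd counts were 13 to 32.9% of those of Zfp750.

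Promoter windows, the 250 bases before a RefSeq start on GRCm38.p6, were found for 6 of the 10 genes; Trp63, Klf5, Ovol1 and Zfp750 had none in the table. Those of Klf4 and Grhl3 are shown because these genes fell in both SmoM2 and PKI, and those of Cebpa and Cebpb because these paralogs parted in level. They are written 5′ to 3′ on the gene's strand and end 1 base before the start. Capitals mark matches of a GC-rich box bound by KLF factors (CCNCNCCC, either strand) in Klf4 (chr4:55532476-55532725, minus) and Grhl3 (chr4:135573633-135573882, minus). In Cebpa (chr7:35119043-35119292, plus) they mark the TATA box letters TATAAA, and in Cebpb (chr2:167688665-167688914, plus) the short cAMP response core TGACG on either strand.
Klf4: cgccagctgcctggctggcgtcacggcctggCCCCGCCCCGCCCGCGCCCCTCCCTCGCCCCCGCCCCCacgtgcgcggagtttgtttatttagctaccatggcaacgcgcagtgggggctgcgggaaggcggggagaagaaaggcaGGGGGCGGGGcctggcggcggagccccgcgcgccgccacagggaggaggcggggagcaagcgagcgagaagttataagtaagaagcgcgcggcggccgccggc
Grhl3: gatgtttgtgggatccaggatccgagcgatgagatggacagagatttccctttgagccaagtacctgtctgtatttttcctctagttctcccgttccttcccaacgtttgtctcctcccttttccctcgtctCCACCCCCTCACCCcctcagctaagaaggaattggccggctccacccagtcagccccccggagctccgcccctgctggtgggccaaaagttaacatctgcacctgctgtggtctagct
Cebpa: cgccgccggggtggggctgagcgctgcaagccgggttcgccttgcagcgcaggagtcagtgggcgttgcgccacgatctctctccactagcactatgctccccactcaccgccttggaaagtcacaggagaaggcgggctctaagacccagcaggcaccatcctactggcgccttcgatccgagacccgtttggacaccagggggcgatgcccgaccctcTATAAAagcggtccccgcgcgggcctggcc
Cebpb: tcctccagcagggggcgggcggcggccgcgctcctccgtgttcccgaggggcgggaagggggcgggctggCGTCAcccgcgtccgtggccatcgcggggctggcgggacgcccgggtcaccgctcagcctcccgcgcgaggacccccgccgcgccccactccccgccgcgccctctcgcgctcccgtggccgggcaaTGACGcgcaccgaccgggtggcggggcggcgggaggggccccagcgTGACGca

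The Klf4 window holds 9 overlapping matches of CCNCNCCC, Cebpb 6, Grhl3 2, and Cebpa 1. This box occurs in 45.9% of 32841 promoters of the same length. TGACG, present in 17.8% of promoters, matched 3 times in Cebpb, 1 time each in Klf4 and Prdm1, and not in Grhl3, Cebpa or Grhl1. TATAAA, present in 12.4% of promoters, matched in Cebpa 30 bases before the start and in none of the other 5 genes. The GLI letters GACCACCCA (0.225% of promoters), the full cAMP response element TGACGTCA (1.55%), the C/EBP letters TTNCGNAA (2.04%) and the grainyhead letters AACNNGTT (3.64%) were not found in the windows of these 6 genes. GC content was 81.6% in Cebpb, 74.0% in Klf4, 66.4% in Cebpa and 56.0% in Grhl3, with a median of 52.4% over all promoters.

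In Con epidermis, Klf4 was the most abundant of the 10 transcripts per exon length, at 374 ± 46.9 CPM per kb (SD, n = 9 Con libraries of 3 models). Cebpa followed at 160 ± 20.9, then Zfp750 at 89.2 ± 13 and Trp63 at 88.9 ± 2.95 CPM per kb. Zfp750 and Trp63 did not differ beyond their spread. Cebpb was at 78 ± 6 CPM per kb, with every library below those of Trp63. Grhl1 (44.7 ± 6.85), Klf5 (40.1 ± 3.12), Grhl3 (39.3 ± 6.99) and Ovol1 (28.3 ± 3.5 CPM per kb) came next, with overlapping ranges between neighbours. Prdm1, the repressor Blimp1, was lowest at 3.15 ± 0.987 CPM per kb. The levels of Trp63 were the tightest of the set across Con libraries, whereas Prdm1 varied most in proportion.

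**Figure D1:**
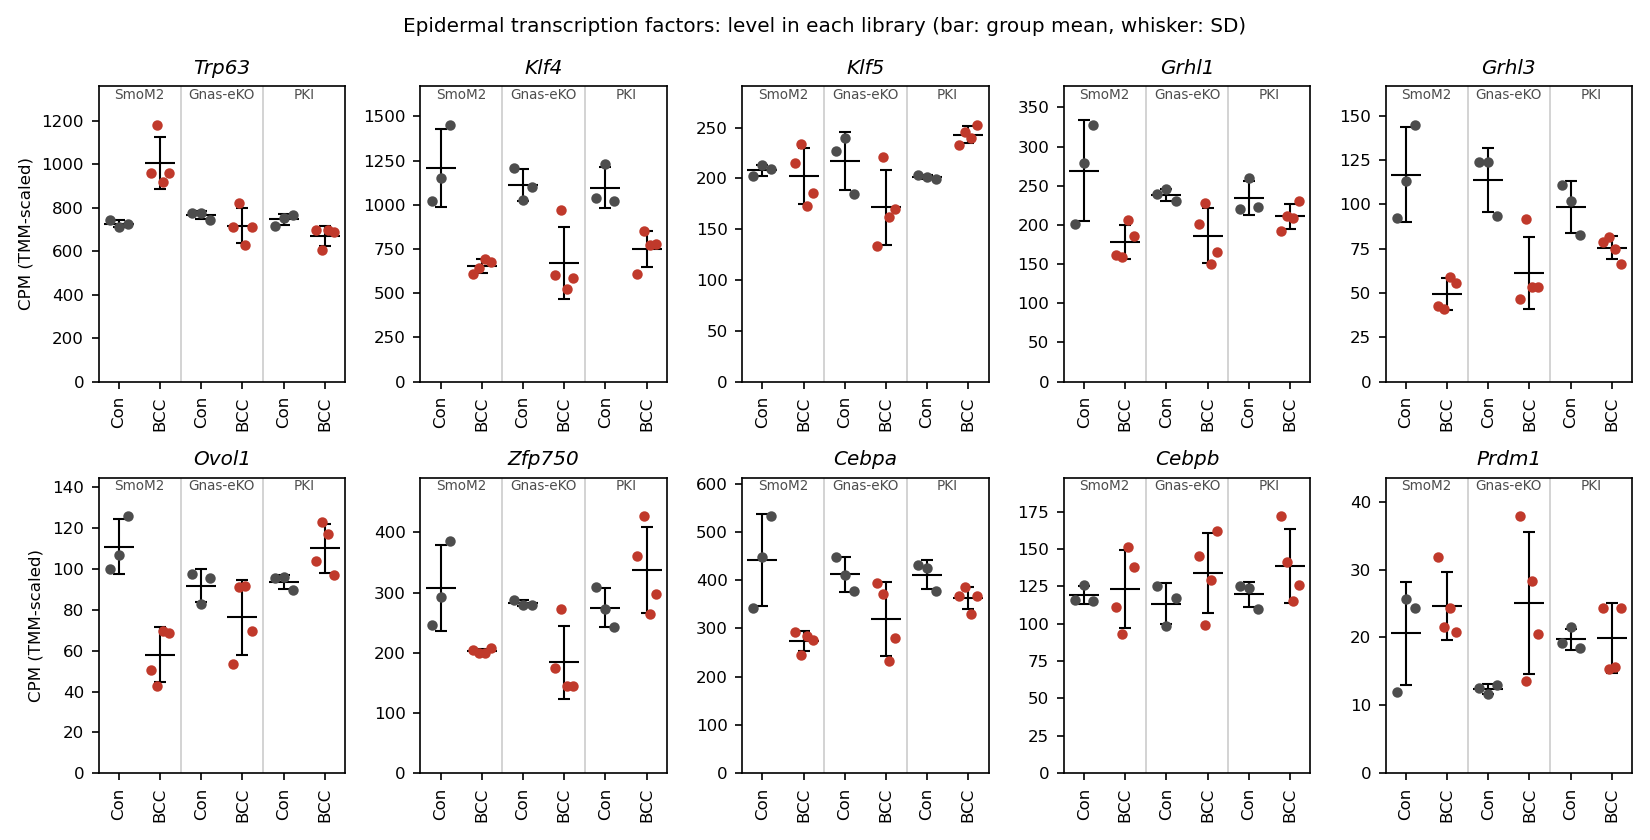
Level of each of the 10 transcription factors in every library (CPM, TMM-scaled), in 3 Con and 4 BCC libraries of SmoM2, Gnas-eKO and PKI; the bar is the group mean and the whisker the SD. Klf4 lies lower in every BCC library than in every Con library of its model, and Trp63 lies higher in BCC in SmoM2 alone, at 916 to 1182 CPM against 711 to 744 CPM.

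In SmoM2 BCC libraries, the basal regulator Trp63 rose while most of the factors of the suprabasal programme fell. By edgeR's quasi-likelihood test with an adjusted p under 0.05 over all genes, 1 of the 10 was higher and 6 were lower in BCC, and 3 did not pass. Among all 16370 genes tested, 29.7% were called, 16.2% higher and 13.5% lower. BCC and Con did not overlap for 6 of the 10, against 38.8% of all genes. The median log2 fold change of the 10 was -0.58, against 0.00 to 0.02 over all genes tested in the 3 models.

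Trp63 was 744, 711 and 726 CPM in the SmoM2 Con libraries and 961, 1182, 916 and 960 CPM in BCC. Every BCC library was above every Con library, and BCC replicate 2 was the highest. The rise was 0.48 on the log2 scale (SE 0.09, 95% interval 0.28 to 0.69, edgeR adjusted p = 0.00356), a 39.6% higher level.

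Klf4, a zinc finger factor needed for the skin barrier, was 1022, 1151 and 1454 CPM in Con and 607, 644, 696 and 676 CPM in BCC. The groups were far apart and the BCC libraries lay close together. Its log2 fold change was -0.87, with an SE of 0.11 (edgeR adjusted p = 0.000403), or -45.2%. Klf5, a KLF factor of proliferating epithelia, behaved differently from Klf4. It was 202, 213 and 209 CPM in Con against 215, 234, 173 and 186 CPM in BCC, with overlapping groups. Its log2 fold change was -0.03, with a 95% interval of -0.25 to 0.20 (edgeR adjusted p = 0.865).

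Grhl3, a grainyhead-like factor of barrier formation and wound closure, had the lowest log2 fold change of the set in SmoM2. Its level was 92.1, 113 and 145 CPM in Con and 42.5, 40.8, 58.8 and 55.7 CPM in BCC. All BCC libraries were below all Con libraries, and the log2 fold change was -1.22, with an SE of 0.19 (edgeR adjusted p = 0.00213), or -57.1%. Its relative Grhl1, which regulates desmosomal cadherins, was 201, 279 and 328 CPM in Con and 162, 159, 206 and 186 CPM in BCC. Here BCC replicate 3 lay above Con replicate 1, and the log2 fold change was -0.58, with an SE of 0.17 (edgeR adjusted p = 0.0314). The Grhl1 call was lost without any 1 of Con replicates 2 (adjusted p = 0.0923) or 3 (0.0879), or BCC replicates 1 (0.077), 2 (0.0768) or 4 (0.0587).

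Ovol1, a repressor that helps keratinocytes leave the cell cycle, was 100, 107 and 126 CPM in Con and 50.6, 42.9, 69.8 and 68.9 CPM in BCC. The groups did not overlap, and its log2 fold change was -0.92, with an SE of 0.18 (edgeR adjusted p = 0.00643). Zfp750, a p63 target that activates terminal differentiation genes, was 246, 292 and 385 CPM in Con and 205, 200, 200 and 207 CPM in BCC. The BCC libraries were nearly equal and all below Con, and the log2 fold change was -0.58, with an SE of 0.13 (edgeR adjusted p = 0.00929). Cebpa, a C/EBP factor of growth arrest, was 343, 448 and 533 CPM in Con and 293, 244, 284 and 275 CPM in BCC. It fell without overlap, at -0.67 (SE 0.14, edgeR adjusted p = 0.00595).

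Cebpb, its paralog, was 116, 126 and 115 CPM in Con and 111, 93.2, 151 and 138 CPM in BCC. The groups overlapped on both sides, and the log2 fold change was 0.07 (95% interval -0.29 to 0.42, edgeR adjusted p = 0.79). Prdm1, which represses genes at the granular to cornified transition, was 11.9, 25.6 and 24.3 CPM in Con and 31.8, 21.5, 24.3 and 20.8 CPM in BCC. Con replicate 1 was the lowest of the 7 libraries, and the log2 fold change was 0.27 (95% interval -0.38 to 0.93, edgeR adjusted p = 0.515).

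In Gnas-eKO BCC libraries, Klf4, Grhl3, Zfp750 and Cebpa had negative fold changes of moderate size. None of the 10 genes passed the edgeR threshold, while 1.63% of 16409 genes did. By direction, 1.46% of all genes were called higher and 0.165% lower. At an unadjusted p under 0.05 there were 4 of the 10, against 19.6% of all genes. DESeq2 called 1 higher and 2 lower, against 6.13% and 2.19% of the 18513 genes to which it gave an adjusted p. BCC and Con did not overlap for 5 genes (Klf4, Grhl1, Grhl3, Zfp750 and Prdm1), against 19.7% of all genes. The median log2 fold change of the 10 was -0.34. BCC replicate 2, the library that stood apart, lay nearest to Con or within its range for Klf4, Klf5, Grhl1, Grhl3, Ovol1, Zfp750, Cebpb and Prdm1.

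Klf4 was 1207, 1029 and 1098 CPM in Gnas-eKO Con and 605, 970, 525 and 584 CPM in BCC. BCC replicate 2 lay just below Con and the others far below, and the log2 fold change was -0.72 (edgeR adjusted p = 0.133). Without that library it was -0.95 (edgeR adjusted p = 0.00834). Grhl3 was 124, 124 and 93.2 CPM in Con and 46.7, 91.6, 53.6 and 53.6 CPM in BCC. Again replicate 2 bordered on Con, and the log2 fold change was -0.88 (edgeR adjusted p = 0.0952) with it and -1.13 (edgeR adjusted p = 0.0037) without it.

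Zfp750 was 288, 280 and 279 CPM in Gnas-eKO Con and 174, 272, 145 and 145 CPM in BCC. Only replicate 2 was close to the tight Con values. The log2 fold change was -0.61 (edgeR adjusted p = 0.187), and -0.85 without replicate 2 (edgeR adjusted p = 0.00653). Prdm1 was 12.6, 11.6 and 13 CPM in Con and 37.9, 13.6, 28.3 and 20.5 CPM in BCC. All 4 BCC libraries were above Con, 3 of them clearly. The Con mean, 12.4 CPM, was below those of PKI Con (19.7) and SmoM2 Con (20.6, with replicate 1 at 11.9). BCC means were 25.1 CPM here and 24.6 CPM in SmoM2. The Prdm1 log2 fold change was 1.03 (edgeR adjusted p = 0.128), and 1.23 without replicate 2 (edgeR adjusted p = 0.0124). Without that library 4 of the 10 were thus called, 3 lower and 1 higher, against 11.8% of 16195 genes (7.36% higher, 4.43% lower). It was picked from these same data as the BCC library nearest to Con, so leaving it out favours such calls. With any other library left out, none of these 4 passed by edgeR. Their adjusted p then reached 0.362 (Klf4), 0.317 (Grhl3), 0.419 (Zfp750) and 0.372 (Prdm1).

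The other Gnas-eKO values did not pass with or without replicate 2. Trp63 was 777, 776 and 743 CPM in Con and 710, 822, 626 and 709 CPM in BCC, or -0.09 on the log2 scale (edgeR adjusted p = 0.793). Replicate 2 was above Con here and the other BCC libraries were below. Cebpa was 449, 411 and 377 CPM in Con against 394, 372, 232 and 280 CPM in BCC, or -0.36 on the log2 scale (edgeR adjusted p = 0.362). Grhl1 (-0.35), Klf5 (-0.33), Ovol1 (-0.26) and Cebpb (0.25) had edgeR adjusted p-values of 0.271, 0.355, 0.504 and 0.481. Grhl1 was lower in BCC without overlap, at 150 to 228 against 230 to 246 CPM, and the groups of the other 3 overlapped.

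**Figure D2:**
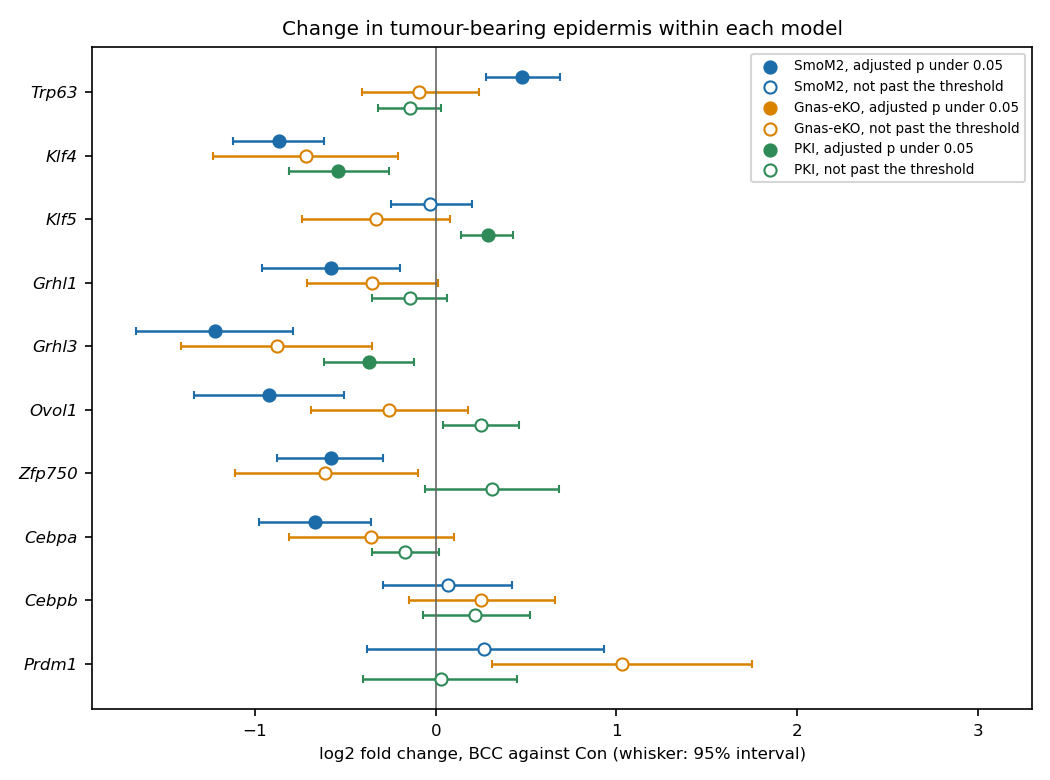
Log2 fold change of BCC against Con for each transcription factor within SmoM2, Gnas-eKO and PKI, with 95% intervals from the edgeR fit; filled points have an adjusted p under 0.05. Klf4 and Grhl3 lie left of 0 in each model, and Trp63 lies right of 0 in SmoM2 (0.48).

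In PKI BCC libraries, Klf4 and Grhl3 fell, by less than in SmoM2 in the fitted values, and Klf5 rose. By edgeR 1 of the 10 was higher and 2 were lower, while 34.5% of 16397 genes were called, 18.7% higher and 15.8% lower. The groups did not overlap for 5 (Trp63, Klf4, Klf5, Grhl3 and Ovol1), against 43.2% of all genes. The median log2 fold change of the 10 was -0.06. These counts are close to the shares of all genes.

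Klf4 was 1038, 1232 and 1023 CPM in PKI Con and 606, 850, 770 and 778 CPM in BCC. Every BCC library was lower, replicate 1 most so, and the log2 fold change was -0.54, with an SE of 0.12 (edgeR adjusted p = 0.00861), or -31%. Klf5 was 203, 201 and 199 CPM in Con and 233, 246, 240 and 253 CPM in BCC. Both groups were tight and apart. Its log2 fold change was 0.29, with an SE of 0.06 (edgeR adjusted p = 0.00829), a 22% higher level, and it lost the call in a fit of all 21 libraries together (adjusted p = 0.129).

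Grhl3 was 111, 102 and 82.7 CPM in PKI Con and 79, 81.7, 75 and 66.5 CPM in BCC. Con replicate 3 lay just above BCC replicate 2, and the log2 fold change was -0.37, with an SE of 0.11 (edgeR adjusted p = 0.0281), or -22.7%. That call was lost without Con replicate 1 (adjusted p = 0.108), Con replicate 2 (0.095), BCC replicate 3 (0.0543) or BCC replicate 4 (0.0576), and in the fit of all 21 libraries (0.167).

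Trp63 was 717, 752 and 768 CPM in PKI Con and 696, 603, 695 and 690 CPM in BCC. BCC lay below Con in every library but did not pass, at -0.14 (edgeR adjusted p = 0.189). Ovol1 was 95.4, 95.9 and 89.6 CPM in Con and 104, 123, 117 and 96.9 CPM in BCC. Its BCC values lay above Con, with replicate 4 only just so, and the log2 fold change was 0.25 (edgeR adjusted p = 0.0622). It passed without BCC replicate 4 (0.31, edgeR adjusted p = 0.0236).

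Zfp750 was 309, 273 and 243 CPM in PKI Con and 360, 427, 265 and 297 CPM in BCC. The groups overlapped, and the log2 fold change was 0.31 (edgeR adjusted p = 0.178). Tbcd, the gene around it, had 0.33 (edgeR adjusted p = 0.0153), and the part of its reads in the Zfp750 counts was not tested. Cebpa (-0.17), Grhl1 (-0.14), Cebpb (0.22) and Prdm1 (0.03) had overlapping groups and edgeR adjusted p-values of 0.141, 0.253, 0.211 and 0.928. Cebpa was 431, 426 and 377 CPM in Con and 367, 385, 330 and 368 CPM in BCC. Prdm1 stayed between 15.3 and 24.4 CPM in all 7 PKI libraries.

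The BCC effect differed between PKI and SmoM2 for 5 of the 10 genes by edgeR's interaction contrast on 14 libraries, where 24.9% of 17261 genes were called. Ovol1 differed most, with a difference of log2 fold changes, PKI minus SmoM2, of 1.17 (edgeR adjusted p = 0.00155). Zfp750 differed by 0.89 (edgeR adjusted p = 0.0126) and Grhl3 by 0.85 (edgeR adjusted p = 0.0166). For Trp63 the difference was -0.62 (edgeR adjusted p = 0.00223): higher in BCC of SmoM2 and not of PKI. Cebpa differed by 0.51 (edgeR adjusted p = 0.0382), a call lost in 10 of 14 fits that each left out 1 library and in the fit of all 21 libraries (0.124). Klf4, which fell in both models, was not shown to differ (0.33, edgeR adjusted p = 0.184), and neither were Klf5 (0.32, 0.0695) and Grhl1 (0.44, 0.115).

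None of the 10 passed between Gnas-eKO and SmoM2 by edgeR, where 0.175% of 17151 genes did, and 2 had an unadjusted p under 0.05, against 8.74% of all genes. The difference for Trp63, Gnas-eKO minus SmoM2, was -0.56 (edgeR adjusted p = 0.282). None passed between PKI and Gnas-eKO by edgeR either, against 9.06% of 17254 genes, and 4 had an unadjusted p under 0.05, against 25.3% of all genes. Without Gnas-eKO BCC replicate 2, however, 4 passed between PKI and Gnas-eKO, against 12% of 17198 genes: Zfp750 (1.17, edgeR adjusted p = 0.00635), Klf5 (0.76, 0.00914), Grhl3 (0.77, 0.0209) and Prdm1 (-1.20, 0.0234). That library was picked from these same data. With any other library left out, Zfp750, Grhl3 and Prdm1 did not pass, and Klf5 passed only without Gnas-eKO Con replicate 3 (edgeR adjusted p = 0.0488). The Prdm1 difference includes the low Con level of Gnas-eKO. In the fit of all 21 libraries the interaction was called for Klf5 (0.61, edgeR adjusted p = 0.0346) and Zfp750 (0.91, 0.0346). The share of all genes called in that fit was not counted.

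Ratios within a library do not depend on the scaling between libraries, and paralogs can be set against each other per exon length. Klf4 stood at 3.78 to 5.51 times Trp63 per kb in SmoM2 Con and at 1.5 to 2.09 times in BCC. In Gnas-eKO this ratio was 3.65 to 4.27 in Con and 2.27 to 3.25 in BCC, again without overlap. In PKI it was 3.66 to 4.51 in Con and 2.40 to 3.88 in BCC, and here the groups overlapped.

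Klf4 over Klf5 went from 8.62 to 11.8 in SmoM2 Con to between 4.70 and 6.87 in BCC, and in PKI from between 8.74 and 10.5 to between 4.43 and 5.89. In Gnas-eKO the 7.32 to 10.1 of Con overlapped the 5.52 to 7.76 of BCC. Cebpa over Cebpb was 1.69 to 2.65 in SmoM2 Con and 1.07 to 1.5 in BCC, and 1.95 to 1.96 in PKI Con and 1.21 to 1.66 in BCC. So in both models the share of Cebpa in this pair was lower in every BCC library, although Cebpa alone did not pass in PKI. In Gnas-eKO it was 1.84 to 2.39 in Con and 0.987 to 2.13 in BCC.

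Grhl3 over Grhl1 was 0.801 to 0.910 in SmoM2 Con and 0.510 to 0.596 in BCC, with a gap between the groups. The same ratio was 0.804 to 1.03 against 0.461 to 0.799 in Gnas-eKO, and 0.735 to 1.00 against 0.572 to 0.819 in PKI, where the groups overlapped. Zfp750 over Klf4 moved up, from 0.227 to 0.250 in SmoM2 Con to between 0.271 and 0.319 in BCC, and in PKI from between 0.209 and 0.281 to between 0.325 and 0.561. Zfp750 was thus higher relative to Klf4 in every BCC library of these models. In Gnas-eKO, Con (0.225 to 0.256) and BCC (0.235 to 0.272) overlapped.

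**Figure D3:**
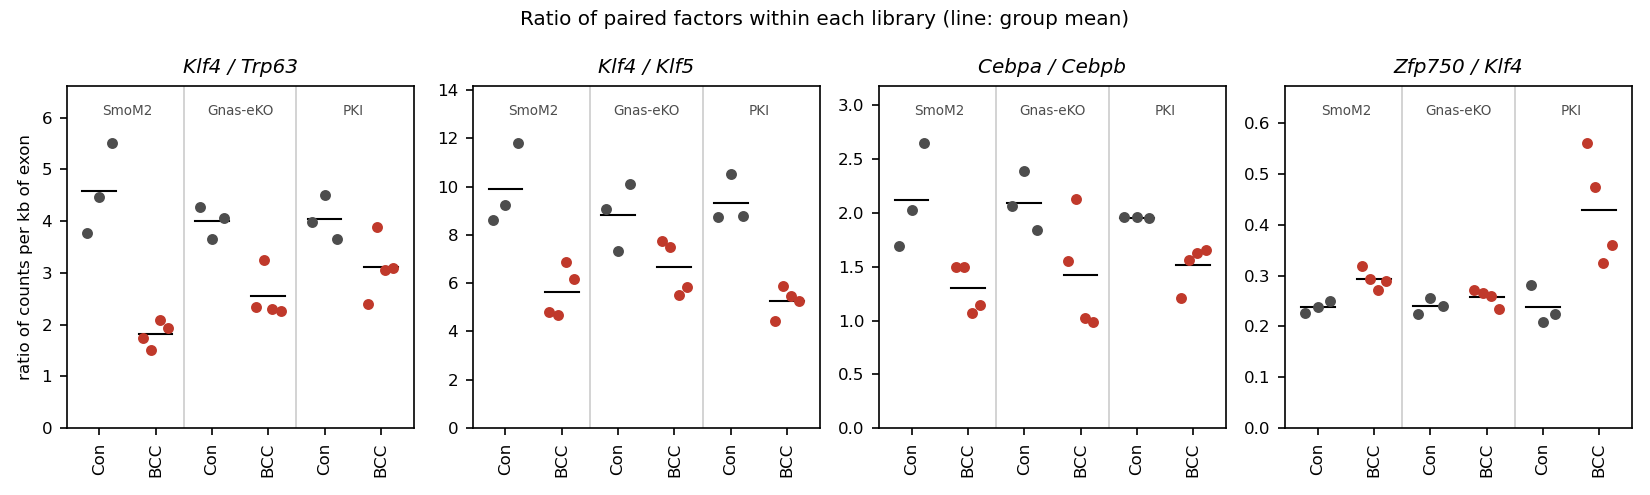
Ratios of 2 transcription factors within each library, per kb of exon, for Con and BCC of each model; each point is a library and the line is the group mean. Klf4 over Trp63 falls from 3.78 to 5.51 in SmoM2 Con to 1.5 to 2.09 in BCC, and Zfp750 over Klf4 is higher in BCC than in Con in SmoM2 and PKI.

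Deviations from the group mean of log2 CPM over the 21 libraries show which of the 10 genes varied together among libraries of 1 group; these describe 1 set of libraries, which share depth and dissection, and are given without a test. Grhl1 went with Cebpa (r = 0.80, and 0.77 in 20 libraries without Gnas-eKO BCC replicate 2) and with Klf4 (0.79, and 0.76 without it). Zfp750 went with Cebpa (0.72, 0.70 without it), while its correlations with Klf4 (0.71, 0.43) and Grhl3 (0.73, 0.53) were smaller without that library. Cebpb ran opposite to Klf5 (-0.68, -0.53 without it) and Trp63 (-0.58, -0.42). Trp63 and Ovol1 had r = -0.41, and -0.74 without it.

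Among 10654 genes compared in the same way, those most like each factor are given with r over 21 libraries and then over the 20 without Gnas-eKO BCC replicate 2. Slc22a23 (0.96, 0.95) and Sbsn, a suprabasal secreted protein (0.93, 0.93), were the most like Grhl1, and Gatad2a the most like Cebpa (0.93, 0.93). These values hardly moved without that library. Nectin1, an adhesion molecule, was the most like Zfp750 (0.92, 0.85), Lypd3 the most like Grhl3 (0.90, 0.84) and Bdh1 the most like Cebpb (0.89, 0.85). Gpr157 came first for Klf4 (0.91, 0.79). Castor1 came first for Klf5 (0.86, 0.76), Cpd for Trp63 (0.83, 0.76), Elovl7 for Ovol1 (0.80, 0.77) and Vasn for Prdm1 (0.79, 0.68). Without that library, the first gene was passed by another of the 3 listed for Klf4 (Gm4202, 0.84), Grhl3 (Gars, 0.87), Klf5 (Abcc5, 0.77), Ovol1 (Uchl4, 0.81) and Prdm1 (Gba2, 0.71), so these orders rest on it.

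The 10 factors were set beside 26 other epidermal transcription regulators, all of which were tested. Over all genes, 16.2% were called higher and 13.5% lower in SmoM2, 18.7% and 15.8% in PKI, and, in Gnas-eKO without BCC replicate 2, 7.36% and 4.43%. These shares are the background for this and the following lists. In SmoM2 8 of these rose and 8 fell (median log2 fold change -0.01), and in PKI 5 rose and 8 fell (median -0.02). In Gnas-eKO none passed by edgeR (median 0.08), 11 had an unadjusted p under 0.05, and DESeq2 called 3 higher and 4 lower. Without Gnas-eKO BCC replicate 2, 5 were called higher and 7 lower. The SmoM2 count of 8 higher was 5 in the joint fit of 21 libraries. The PKI counts were 3 higher and 5 lower without Con replicate 3, and 4 of each without Con replicate 2. Maf, a differentiation factor downstream of p63, fell in SmoM2 (-1.31, edgeR adjusted p = 8.17e-06) and PKI (-1.25, 5.16e-05). Cebpd, a further C/EBP factor, rose in both (1.03, edgeR adjusted p = 0.00256, and 1.11, 0.0137), unlike Cebpa and Cebpb. The Cebpd call in PKI was lost without Con replicate 2 (adjusted p = 0.0598) or 3 (0.0558). In SmoM2 Sox9, a hair follicle stem cell factor, rose (1.19, edgeR adjusted p = 0.00497).

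Dlx3, a homeobox factor of the granular layer, fell in SmoM2 from a mean of 69.2 to 28.2 CPM (-1.28, edgeR adjusted p = 0.0232) and rose in PKI from 60.1 to 126 CPM (1.08, 0.00222). The SmoM2 call was lost with no filter (adjusted p = 0.0531) and without BCC replicate 1 (0.0513) or 2 (0.0624). The difference, PKI minus SmoM2, was 2.36 (edgeR adjusted p = 0.00128). Elf3, an ETS factor of differentiating epithelia, rose in PKI from 0.766 to 7.28 CPM (3.25, edgeR adjusted p = 0.000492). Tfap2b rose in SmoM2 (1.33, edgeR adjusted p = 1.38e-05) and Klf9 fell in PKI (-1.17, 0.00125). Satb1 was lower in PKI (-1.51, edgeR adjusted p = 0.0427), a call lost with no filter (0.0767) and without any 1 PKI library other than BCC replicate 3 (0.064 to 0.107).

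Genes of the layers these factors regulate were counted in the same fits. Of 8 early differentiation genes, 7 fell in SmoM2 (median -1.06), and 2 rose and 4 fell in PKI (-0.50). In Gnas-eKO none passed by edgeR (-0.62), 3 had an unadjusted p under 0.05, DESeq2 called 3 lower, and 4 were lower without BCC replicate 2. Krt2, a suprabasal keratin, fell in SmoM2 (-1.80, edgeR adjusted p = 0.00145) and PKI (-2.37, 0.0189). The Krt2 call in PKI was lost without BCC replicate 4 (adjusted p = 0.0509) or Con replicate 2 (0.051). Krt1, the spinous layer keratin, was 1.80 higher in PKI (edgeR adjusted p = 0.0414), but lost the call with no filter on low counts (0.0869) and without any 1 of Con replicates 1 to 3 (0.0633, 0.0821, 0.0606) or BCC replicates 2 to 4 (0.0874, 0.0574, 0.0807). With 1 library left out, the early counts in PKI ran from 0 to 2 higher (0 without Con replicate 3) and from 1 to 4 lower (1 without Con replicate 2).

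Of 17 late differentiation genes, 9 fell in SmoM2 (median -1.31), 1 fell in Gnas-eKO (median 0.19) and 7 fell in PKI (median -1.05). The SmoM2 count was 4 with no filter on low counts. It was 2 without Con replicate 3, 3 without Con replicate 2 or BCC replicate 1, 6 without BCC replicate 2 or 4, and 11 without Con replicate 1. In Gnas-eKO the gene called was Tgm3, a transglutaminase (-1.21, edgeR adjusted p = 0.0475), and DESeq2 called 2 higher and 2 lower. By edgeR 6 of the 17 had an unadjusted p under 0.05, against 19.6% of all genes. Without BCC replicate 2, 1 was higher (Rptn, 2.73, edgeR adjusted p = 0.00119) and 2 were lower. Rptn had the highest log2 fold change of the list in each model, and passed in none. It was 0.77 in SmoM2 (edgeR adjusted p = 0.504), 2.4 in Gnas-eKO (0.0784) and 1.25 in PKI (0.0883). The Tgm3 call was kept without BCC replicate 2 and lost without any other 1 of the 7 libraries (adjusted p 0.0746 to 0.19). Flg2, a filaggrin relative, was lower in SmoM2 (-2.47, edgeR adjusted p = 0.0268). That call was lost with no filter (0.0544) and without Con replicate 2 (0.0688) or 3 (0.082) or BCC replicate 1 (0.0528), 2 (0.0638) or 4 (0.0547). In Gnas-eKO Flg2 lay higher in BCC without overlap and did not pass (0.97, edgeR adjusted p = 0.16). The late envelope gene Lce1b fell in PKI (-2.94, edgeR adjusted p = 0.000394).

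Of 12 basal layer genes, 2 rose and 6 fell in SmoM2 (median -0.22), and 1 rose and 6 fell in PKI (-0.24). In Gnas-eKO none passed by edgeR (-0.32), 2 had an unadjusted p under 0.05, DESeq2 called 1 lower, and 3 were lower without BCC replicate 2. The 6 lower in SmoM2 were 2 in the joint fit of 21 libraries, 3 without BCC replicate 1, BCC replicate 2 or Con replicate 2, and 4 without BCC replicate 3, BCC replicate 4 or Con replicate 1. Trp63 rose in SmoM2 while Krt14, the basal keratin and a known p63 target, fell from a mean of 13163 to 5663 CPM (-1.20, edgeR adjusted p = 3.65e-05). Cdh3, or P-cadherin, rose in SmoM2 (0.47, edgeR adjusted p = 0.000694) and PKI (0.60, 0.000958). In PKI the Krt14 change was -0.00 on the log2 scale (edgeR adjusted p = 0.986), and the hemidesmosome gene Col17a1 fell (-1.13, 0.000269). Of 7 sebaceous gland genes tested, Fabp5 alone passed, lower in SmoM2 (-0.95, edgeR adjusted p = 0.0102) and higher in PKI (1.84, 0.00407). Fabp5 is not among the sebocyte markers summed above, and the other sebaceous genes tested had negative log2 fold changes in PKI that did not pass. In PKI 3 of the sebaceous genes were called lower without BCC replicate 1, among them Far2 (-1.65, edgeR adjusted p = 0.00915), and 1 without Con replicate 1 (Scd3, -3.0, 0.0134). DESeq2 and the joint fit of 21 libraries each called 1 lower.

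**Figure D4:**
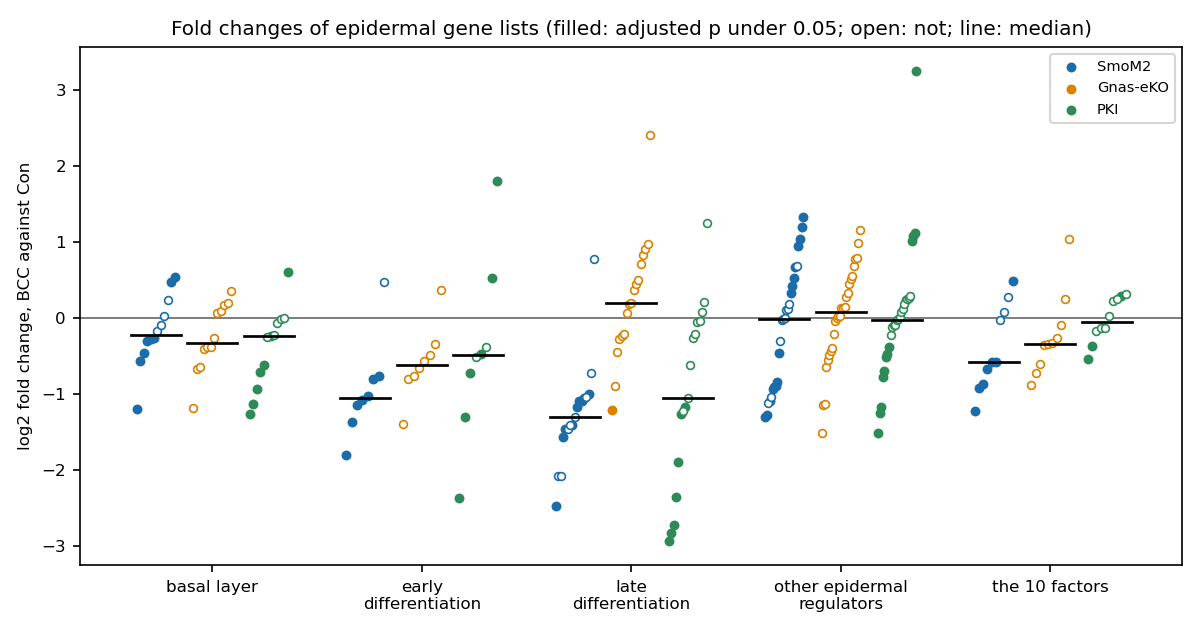
Log2 fold changes of BCC against Con for the 10 transcription factors, the 26 other regulators and the basal, early and late gene lists in each model; each point is a gene, filled where its adjusted p is under 0.05, and the line is the median. The early genes lie mostly below 0 in SmoM2 (median -1.06), and the other regulators spread on both sides of 0.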

How the data were processed

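Tail keratinocyte RNA of 21 libraries was prepared with a stranded polyA ligation kit, per the labels' protocols. The submitters' processing notes name bcl2fastq 2.20, cutadapt 1.18, STAR 2.7.0f, Partek and mm10. The authors deposited estimated counts per gene (33.1% not whole, lowest gene sum 10) and a normalized signal, each count times a library factor plus 0.001, used only for an alternative.

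Rounding the estimated counts preceded the fits in edgeR 4.0.16, run in R 4.3.3 (filterByExpr, TMM, robust quasi-likelihood test, Benjamini-Hochberg over all genes). Each model's 4 BCC libraries were set against its 3 Con libraries, and BCC effects between models as an interaction on 14 libraries. Calls had an adjusted p under 0.05; SE is the absolute log2 fold change over the square root of F. Fits were also run on simulated counts with the same dispersion for all genes and larger effects than most of those of the factors. They do not cover changes as small as these. Alternatives used DESeq2 1.42.0, limma 3.58.1 with a pseudocount of 1, other filters and scalings, a joint fit of 21 libraries, a replicate block, and each library left out.

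All 10 factors are named. From other lists, the genes with the highest and lowest log2 fold changes in a model could be named, for regulators at most 3 each way among called genes. Members and lists were chosen with earlier results of these data known. A count of 3 corresponds to at most 0.189 CPM. No libraries agreed within counting noise (lowest chi-square per degree of freedom 8.94).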

Additional observations from a re-analysis of the deposited data

Results flagged for a closer look

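Dixon's ratio, the gap to the nearest library over the range, was used to look for 1 outlying library among 4 BCC libraries. It was taken for each of the 10 genes in the BCC group of each model, which made 30 sets. In 3 sets 1 library lay far from the others, and chance gives about 1 in 20 for a single independent set. The sets reuse the same libraries and are not independent, so the number found cannot be weighed against chance. Trp63 was highest in SmoM2 BCC replicate 2 (1182 CPM) and lowest in PKI BCC replicate 2 (603 CPM). Grhl3 was highest in Gnas-eKO BCC replicate 2 (91.6 CPM), the library whose expression profile lay between Con and the other BCC libraries.

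The BCC effect differed between PKI and SmoM2 by edgeR's interaction test. The differences of log2 fold changes, PKI minus SmoM2, were -0.62 for Trp63, 0.85 for Grhl3, 1.17 for Ovol1, 0.89 for Zfp750 and 0.51 for Cebpa. Genes of the other lists that were called in opposite directions in the 2 models differed by 2.36 (Dlx3), -1.71 (Tfap2b), -2.45 (Satb1), -1.15 (Lamb3), 1.29 (Sfn) and 2.80 (Fabp5). The PKI call of Satb1 was lost in 7 of 13 alternatives. Model, batch and day cannot be told apart in these differences.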

How the results depend on the processing

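With all libraries kept, 280 of 300 values of the 10 genes kept their direction and side of the threshold, 4 lost a call, 11 gained one and 5 changed sign; of 630 values with 1 library left out, 576 kept both, 19 lost a call, 12 gained one and 23 changed sign. In SmoM2 the counts of 1 higher and 6 lower stayed within 1.5 times under every alternative run.

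In Gnas-eKO, where the count is 0 each way, DESeq2 called 1 higher and 2 lower and the joint fit 1 higher and 3 lower; leaving out 1 library gave 0 to 1 higher and 0 to 3 lower. In PKI the joint fit called 0 higher and 1 lower, and leaving out 1 library gave 1 to 2 higher and 1 to 2 lower. Between PKI and Gnas-eKO the joint fit called 2, and its share of all genes was not counted. Leaving out 1 library there gave 0 to 4, the 4 without Gnas-eKO BCC replicate 2, where 12% of all genes were called. The cause was not tested.

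Replicate numbers do not pair the libraries: deviations of same-numbered libraries had mean correlations of -0.10 (SmoM2), 0.09 (Gnas-eKO) and 0.11 (PKI). With the replicate block PKI had 3 higher, and signs changed for Cebpb in SmoM2 (-0.02), Krt1 in Gnas-eKO (-0.12), Prdm1 (-0.11) and Krt14 (0.04) in PKI, Zfp750 between Gnas-eKO and SmoM2 (0.01) and Cebpb between PKI and Gnas-eKO (0.12). Prdm1 in PKI was -0.01 by limma on the normalized values.

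Leaving out 1 library changed the sign of uncalled log2 values. In SmoM2 the ranges were -0.10 to 0.04 (Klf5), -0.04 to 0.18 (Cebpb), -0.01 to 0.46 (Prdm1), -1.12 to 0.61 (Awat2) and -0.04 to 0.64 (Soat1). In Gnas-eKO they were -0.40 to 0.71 (Krt1), -0.37 to 0.03 (Pparg) and -0.06 to 0.12 (Far2), and in PKI -0.10 to 0.13 (Prdm1) and -0.06 to 0.07 (Krt14). For differences between Gnas-eKO and SmoM2 they were -0.08 to 0.26 (Klf4) and -0.28 to 0.12 (Zfp750). Prdm1 between PKI and SmoM2 ran from -0.44 to 0.04, Trp63 between PKI and Gnas-eKO from -0.12 to 0.02, and Cebpb there from -0.15 to 0.08.

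Some counts over the other lists moved as well. With 1 library left out, late genes lower in SmoM2 ran from 2 to 11, basal genes lower there from 3 to 6, early genes in PKI from 0 to 2 higher and 1 to 4 lower, and sebaceous genes lower in PKI from 0 to 3. In Gnas-eKO, other regulators ran from 0 to 5 higher and 0 to 7 lower, and early genes from 0 to 4 lower. With the replicate block, 11 late genes were lower in PKI, and Tgm3 in Gnas-eKO, Krt2 in PKI, and Fabp5 and Sox9 in SmoM2 had adjusted p-values of 0.0905, 0.0581, 0.0617 and 0.0671 by edgeR.

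Over all genes in Gnas-eKO, 240 were called higher and 27 lower, against 1135 and 405 by DESeq2, 1573 and 1071 in the joint fit, 128 and 7 with the block, and 0 to 1192 and 0 to 718 with 1 library left out; limma called 47 lower. In SmoM2 2214 were lower, and 1444 with the block. Prdm1, at 11.6 to 37.9 CPM, is the least precisely measured of the 10 genes.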
